A study of Homo sapiens with 30 samples.

Results

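Genes of the hypoxia response and of glycolysis were followed in THP-1 macrophage-like cells exposed to nanomaterials. The set held 39 listed genes, chosen by name. A gene entered where a probe set of the array was annotated to that gene alone, and where there were several, the brightest on average was used. Of the 39 genes 37 had such a probe set and 36 were tested, among 10050 genes tested in all. CA9, a carbonic anhydrase, and SLC16A3, a lactate exporter, were matched to no probe set of their own. EGLN3, an oxygen-sensing prolyl hydroxylase, lay below the 25th percentile of the array on every array, at log2 intensities of 2.78 to 3.61, and was not tested. The other 36 are called members here. PLOD2 lay above that percentile on 10 of 30 arrays only, and the other 35 did so on all 30.

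THP-1 is an established human monocytic leukaemia line. All 10 groups were treated with 82 nM phorbol 12-myristate 13-acetate (PMA) for 24 h, which makes the cells adherent and macrophage-like, and then washed, scraped and replated. The control groups received 0 µg/ml of particles. The exposed groups received multi-walled carbon nanotubes (MWCNT) or ribbon-shaped titanium dioxide nanobelts (TiO2-NB) at 10 or 100 µg/ml, and every group was harvested after 1 or 24 h. Each group had 3 arrays, labelled as biological replicates, and a p-value rests on the spread between arrays within groups, pooled over all 10 groups. As a leukaemia line made macrophage-like by a phorbol ester, the cells stand in for macrophages only in part, and the labels give no oxygen level for the cultures. The comparisons ask which members differ with material, dose and time.

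In oxygenated cells prolyl hydroxylases mark the alpha subunits of hypoxia-inducible factors (HIF), HIF1A and EPAS1, for degradation. When oxygen falls, the alpha subunits accumulate as protein, pair with ARNT or its relative ARNT2 and bind short DNA elements near their target genes. The targets include glucose transporters, glycolytic enzymes, PDK1, which inhibits pyruvate dehydrogenase, and secreted factors such as VEGFA. Macrophages also switch to glycolysis when activated by inflammatory stimuli, with oxygen present. Because HIF alpha subunits are controlled mainly as proteins, a transcript level on an array does not measure their activity.

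Promoter sequences are shown for 5 members whose transcripts changed at 24 h with 100 µg/ml: EPAS1, DDIT4, PLOD2, PFKM and HK2. Members were taken by the number of exposure comparisons with a change, then by its size. ARNT2 and NDRG1, which changed with both materials, ranked first, but the promoter sequences used here held none for them. Each sequence shown is the 250 bases before the outermost annotated start site, 5′ to 3′ in the direction of the gene, from RefSeq on build GRCh38.p14. They are EPAS1 at chr2:46297157-46297406 (plus strand), DDIT4 at chr10:72273674-72273923 (plus), PLOD2 at chr3:146161185-146161434 (minus), PFKM at chr12:48105103-48105352 (plus) and HK2 at chr2:74833877-74834126 (plus). Capitals mark the core letters of HIF elements, ACGTG or GCGTG, on either strand.
EPAS1: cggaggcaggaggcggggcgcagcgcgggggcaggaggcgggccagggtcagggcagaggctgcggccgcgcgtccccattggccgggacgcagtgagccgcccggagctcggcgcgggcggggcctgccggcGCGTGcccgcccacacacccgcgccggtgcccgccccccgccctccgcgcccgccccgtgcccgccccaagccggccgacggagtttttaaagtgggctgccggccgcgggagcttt
DDIT4: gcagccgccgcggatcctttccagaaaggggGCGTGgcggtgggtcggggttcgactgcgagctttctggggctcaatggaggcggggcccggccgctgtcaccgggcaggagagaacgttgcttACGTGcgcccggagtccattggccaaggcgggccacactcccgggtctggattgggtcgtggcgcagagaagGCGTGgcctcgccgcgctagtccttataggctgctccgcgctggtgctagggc
PLOD2: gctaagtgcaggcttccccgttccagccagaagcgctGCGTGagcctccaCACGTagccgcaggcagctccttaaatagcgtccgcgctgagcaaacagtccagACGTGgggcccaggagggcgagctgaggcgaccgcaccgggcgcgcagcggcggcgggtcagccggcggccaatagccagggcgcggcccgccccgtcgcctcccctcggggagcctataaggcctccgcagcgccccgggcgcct
PFKM: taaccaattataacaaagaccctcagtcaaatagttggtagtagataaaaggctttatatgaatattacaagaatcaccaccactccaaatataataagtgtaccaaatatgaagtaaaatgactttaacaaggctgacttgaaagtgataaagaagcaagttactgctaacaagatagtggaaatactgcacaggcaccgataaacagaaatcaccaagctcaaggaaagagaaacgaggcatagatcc
HK2: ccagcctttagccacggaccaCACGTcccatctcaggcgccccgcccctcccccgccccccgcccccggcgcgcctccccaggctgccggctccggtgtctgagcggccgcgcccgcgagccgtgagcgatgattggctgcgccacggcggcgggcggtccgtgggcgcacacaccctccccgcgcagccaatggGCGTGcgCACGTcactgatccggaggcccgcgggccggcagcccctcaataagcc
Counting the base before the start site as -1, the EPAS1 window held 1 match, at -117 to -113, and the PFKM window held 0. The DDIT4, PLOD2 and HK2 windows held 3 matches each. In DDIT4 they began at -219, -125 and -53. In HK2 they began at -229 and, close to each other, at -55 and -48. Of the 39 listed genes 35 had such a window in the RefSeq table, and 22 of the 35 (62.9%) held at least 1 match, against 43.2% of 35116 windows of the same length. The listed genes had 1 window each, while the 35116 were all windows and not 1 a gene, so the shares are of unlike units. The list was also chosen to hold hypoxia genes. The share with ACGTG was 40% against 18.5%, and that with GCGTG was 42.9% against 32.2%. A match is a description of letters, not a bound site. PFKM, with 0 matches in its window, and BNIP3, with 6, were both among the members that changed at 24 h. Any other start sites of a listed gene were not counted.

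Across the 30 arrays the median residual SD was 0.128 over all genes and 0.141 over the members. The arrays of a group differed mostly along 1 direction, the leading principal component of the residuals, with 43.1% of the residual variance among 1 h arrays and 49.9% among 24 h arrays. On it 1 array of each group stood apart from the other pair, as 1 of 3 values around their mean always does. At 24 h this was replicate 3 of the control and of both 10 µg/ml groups and replicate 1 of both 100 µg/ml groups. In every 24 h group VEGFA was lowest and ADM highest on that array, so the deviation was shared across unlike replicate numbers. The labels do not give its source, and the main tests of 100 µg/ml against control do not account for it. Counts without the arrays that stood apart are given beside the main counts. The 10 macrophage and monocyte markers tested had mean log2 levels from 7.18 (CD14) and 7.23 (SPI1) to 13.59 (LAPTM5). Those of 18 lymphocyte, epithelial and fibroblast markers ran from 4.73 (CLDN4) to 7.34 (NKG7) and 7.97 (COL1A1). These ranges overlap, and levels of different probe sets cannot be set against each other, so the lists serve only to compare groups. The mean of the macrophage list was 10.70 to 10.75 on the 24 h control arrays, 10.63 to 10.65 with 100 µg/ml MWCNT and 10.42 to 10.47 with 100 µg/ml TiO2-NB. With TiO2-NB 5 of the 10 were lower, against 11.1% of all genes, and with MWCNT 1 was, against 4.04%. One fibroblast marker of 6 was higher with TiO2-NB, against 10.9% of all genes. Their part in the results was not tested. In RNA from a whole culture, fewer cells of a type and less RNA per cell cannot be told apart.

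At 1 h, and at 10 µg/ml, members were not called without the replicate number in the fit. An adjusted p under 0.05 in limma's test (Benjamini-Hochberg over all 10050 genes) is a call throughout. With 10 or 100 µg/ml MWCNT at 1 h, and with 10 µg/ml TiO2-NB at 1 h, 0 of 36 members were called, against 0% of all genes, and 0 members had an unadjusted p under 0.05. With 100 µg/ml TiO2-NB at 1 h 0 members were called, against 1.15% of all genes, and 5 had an unadjusted p under 0.05. Equally numbered arrays of these groups deviated together, and a fit with the number as a block, added after the values were seen, called 2 members (5.56%), ENO2 (0.36, adjusted p = 0.029) and BNIP3 (0.25, adjusted p = 0.0489), against 5.41% of all genes. At 24 h 10 µg/ml MWCNT gave 0 calls, against 0%, with 2 members at an unadjusted p under 0.05, and 10 µg/ml TiO2-NB gave 0, against 0.0199%, with 1. The members' log2 differences from control at 10 µg/ml ran from -0.29 to 0.42 at 24 h.

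**Figure D1:**
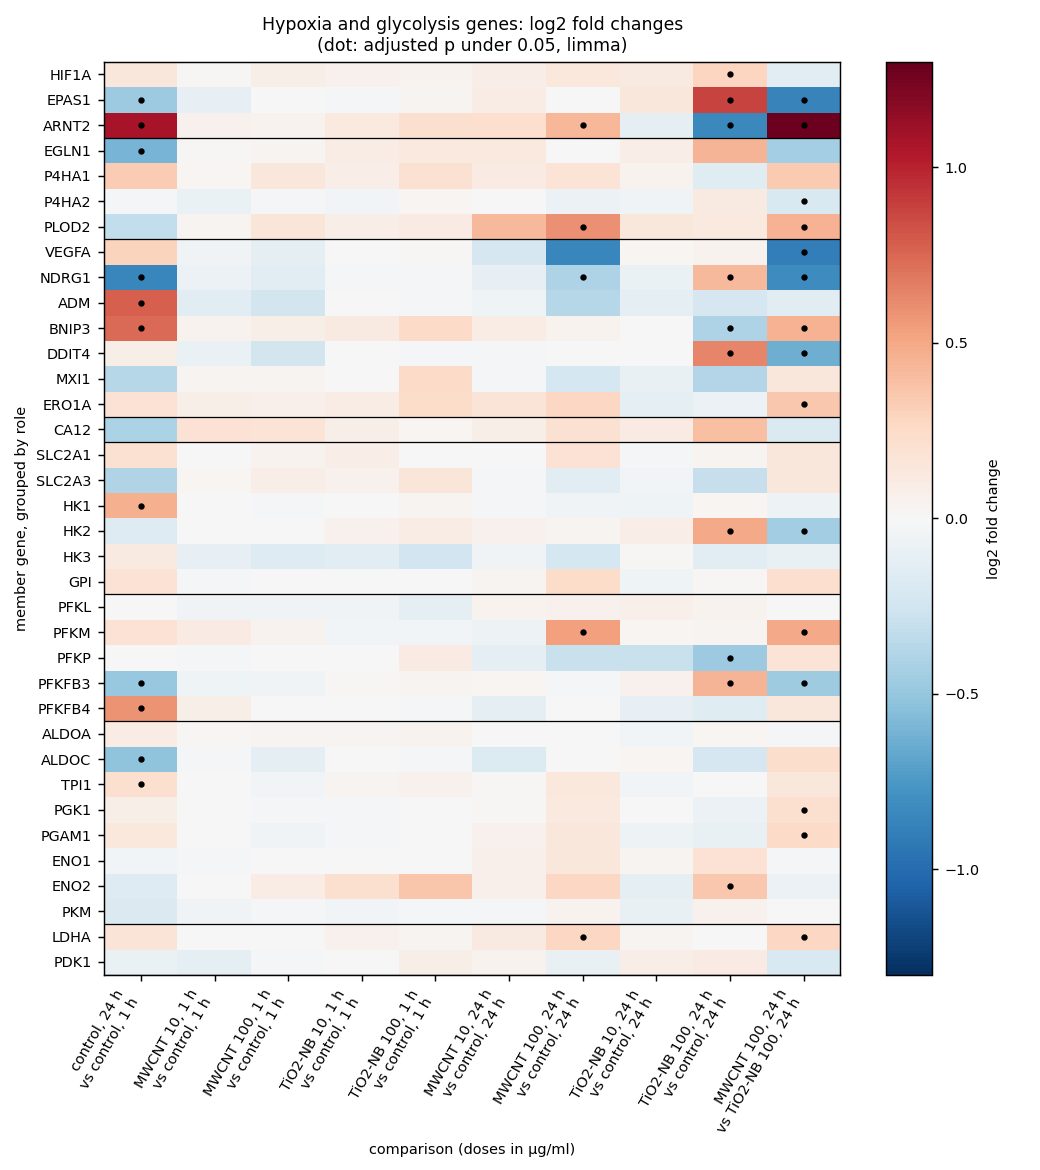
Log2 fold changes of the 36 members (rows, grouped by role) in 10 comparisons (columns); red is higher and blue lower in the first named group, and a dot marks an adjusted p under 0.05 by limma. The dots lie in the control time column and in the 3 columns of 100 µg/ml at 24 h, and the deepest colours are those of ARNT2.

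With 100 µg/ml TiO2-NB for 24 h, 7 members rose and 3 fell. The upstream factors EPAS1 and HIF1A, the stress genes DDIT4 and NDRG1 and the glycolytic genes HK2, PFKFB3 and ENO2 were higher. ARNT2, PFKP and BNIP3 were lower. The 10 calls are 27.8% of the members, against 22.1% of all genes (10.9% higher and 11.1% lower). The members' median log2 change was 0.03, against 0.01 over all genes. At least 1.5-fold were 3 calls, EPAS1, DDIT4 and ARNT2, against 5.89% of all genes. Without the arrays that stood apart 13 members were called, 9 higher and 4 lower, with 21.6% of all genes.

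With 100 µg/ml MWCNT for 24 h, 4 members rose and 1 fell. PLOD2, PFKM, ARNT2 and LDHA were higher and NDRG1 was lower. The 5 calls are 13.9% of the members, against 13% of all genes (8.99% higher and 4.04% lower), and the median was 0.05, against -0.01. At least 1.5-fold was 1 call, PLOD2, against 3.76% of all genes, and its control arrays lay below the 25th percentile. The count moved with the arrays used: 3 members were called without MWCNT replicate 3 (9.26% of all genes), 9 without MWCNT replicate 1 (10.5%), and 11 (8 higher and 3 lower) without the arrays that stood apart (15.8%). Both exposures are compared with the same 3 control arrays. Only the direct comparison of the materials, given further on, tests whether they differ.

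Among the transcription factors, ARNT2, a dimer partner of the HIF alpha subunits, varied more between groups than any other member, with group means spanning 1.5 on the log2 scale. Its level was 7.67, 7.75 and 7.46 on the 24 h control arrays, 8.11, 8.03 and 8.06 with 100 µg/ml MWCNT and 6.7, 6.92 and 6.75 with 100 µg/ml TiO2-NB. All MWCNT arrays lay above all control arrays and all TiO2-NB arrays below them. The change was 0.43 ± 0.09 with MWCNT (SE; adjusted p = 0.00235) and -0.84 ± 0.09 with TiO2-NB (adjusted p = 4.76e-07). At 1 h the control arrays read 6.42, 6.63 and 6.64, and the means of the 1 h groups ran from 6.56 to 6.78, against 6.79 with TiO2-NB at 24 h. At 10 µg/ml for 24 h the mean was 7.85 ± 0.07 (SD, n = 3) with MWCNT and 7.5 ± 0.07 with TiO2-NB, neither called against control.

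EPAS1, the HIF-2 alpha subunit, read 8.55, 8.6 and 9.11 in the 24 h control and 9.97, 9.42 and 9.52 with 100 µg/ml TiO2-NB. The groups did not overlap, though control replicate 3 lay well above the other two. The rise was 0.88 ± 0.17 (adjusted p = 0.000637), which is 1.84-fold. With MWCNT the arrays read 9.06, 8.68 and 8.56, and the difference from control was 0.01 with a 95% interval of -0.35 to 0.37. HIF1A, the HIF-1 alpha subunit, read 11.29, 11.38 and 11.15 in the control, 11.48, 11.37 and 11.38 with MWCNT and 11.51, 11.56 and 11.57 with TiO2-NB. The TiO2-NB arrays were all above the control, and the MWCNT arrays overlapped it. HIF1A rose by 0.28 ± 0.07 with TiO2-NB (adjusted p = 0.00785). The call was lost without control replicate 3 and in a fit of the compared groups only, with adjusted p from 0.00387 to 0.0774 over the alternatives. With MWCNT the difference was 0.14 ± 0.07 (adjusted p = 0.236).

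**Figure D2:**
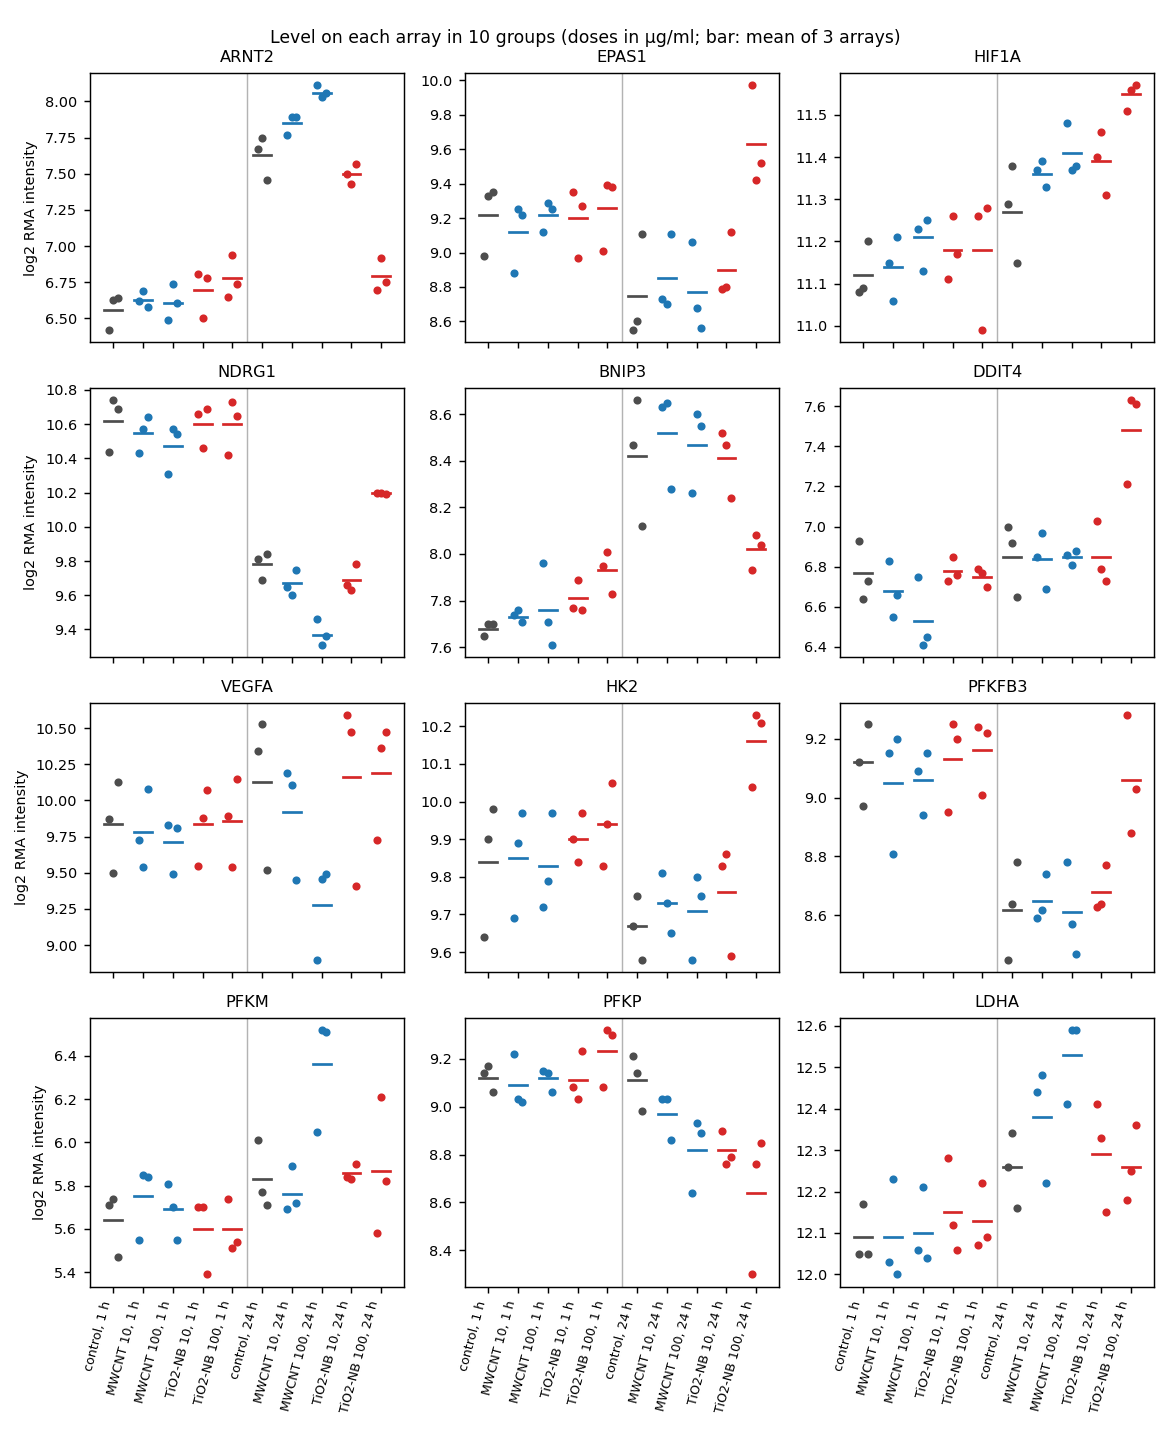
Log2 RMA intensity (y axis) of 12 members on each array in the 10 groups (x axis); points are arrays, bars are means of 3 arrays, grey is control, blue MWCNT and red TiO2-NB, and each panel has its own scale. ARNT2 at 100 µg/ml for 24 h parts upward with MWCNT, at 8.03 to 8.11, and downward with TiO2-NB, at 6.7 to 6.92.

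Among secreted and stress-linked targets, NDRG1, a gene widely used as a hypoxia marker, moved in opposite directions with the materials. It read 9.81, 9.69 and 9.84 in the 24 h control, 9.46, 9.31 and 9.36 with 100 µg/ml MWCNT and 10.2, 10.2 and 10.19 with 100 µg/ml TiO2-NB. The 3 groups did not overlap. NDRG1 fell by 0.40 ± 0.09 with MWCNT (adjusted p = 0.00344) and rose by 0.42 ± 0.09 with TiO2-NB (adjusted p = 0.0014). DDIT4, an inhibitor of mTORC1 induced by hypoxia and other stresses, read 7, 6.92 and 6.65 in the control and 7.21, 7.63 and 7.61 with TiO2-NB, a rise of 0.63 ± 0.12 (adjusted p = 0.000313). With MWCNT its arrays lay at 6.86, 6.81 and 6.88, inside the control range.

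BNIP3, a mitochondrial receptor for mitophagy, read 8.47, 8.66 and 8.12 in the control and 7.93, 8.08 and 8.04 with TiO2-NB. The TiO2-NB arrays were all lower, by little against control replicate 3. BNIP3 fell by 0.40 ± 0.12 (adjusted p = 0.0169), and its second probe set gave -0.44 ± 0.13. The call was lost in 4 alternatives, among them without control replicate 1, control replicate 2 and TiO2-NB replicate 1, with adjusted p up to 0.131.

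VEGFA, the angiogenic growth factor, had the largest residual SD of the members, 0.39. It read 10.34, 10.53 and 9.52 in the 24 h control and 8.9, 9.46 and 9.49 with 100 µg/ml MWCNT. The MWCNT arrays were all below the control, though control replicate 3 lay only just above them. The difference was -0.85 ± 0.29 with a 95% interval of -1.45 to -0.24, and it missed the threshold (adjusted p = 0.0574). It passed under the stricter filter, cyclic loess and the mean of probe sets and without control replicate 3, with adjusted p up to 0.231 over all alternatives. Its 4 probe sets ran from -0.64 to -0.85. Replicate 3 also read low at 10 µg/ml for 24 h, at 9.45 with MWCNT and 9.41 with TiO2-NB, against 10.11 to 10.59 on the other arrays of these groups. These are arrays that stood apart, and without all such arrays the difference was -0.96 (adjusted p = 0.000114). With 100 µg/ml TiO2-NB VEGFA read 9.73, 10.36 and 10.47, a difference of 0.05 ± 0.29 from the control with a 95% interval of -0.55 to 0.66.

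The other secreted and stress-linked members were not called against control. ADM, a vasodilator peptide, read 10.31, 9.75 and 9.76 with MWCNT and 10.44, 9.93 and 9.91 with TiO2-NB, against 10.2, 10.3 and 10.42 in the control, so replicate 1 of each exposed group lay apart from the other pair. MXI1, a MYC antagonist, differed by -0.38 with TiO2-NB (adjusted p = 0.0818). ERO1A, an oxidase of the endoplasmic reticulum, read 8.16, 7.9 and 8.2 with MWCNT, 7.67, 7.73 and 7.82 with TiO2-NB and 7.75, 7.88 and 7.83 in the control.

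Among the hydroxylases 1 of 4 tested was called, with MWCNT, where 13% of all genes were called. PLOD2, a lysyl hydroxylase of collagen, read 4.38, 4.5 and 4.31 in the control, 4.93, 4.81 and 5.2 with 100 µg/ml MWCNT and 4.46, 4.38 and 4.74 with TiO2-NB. The MWCNT arrays were all above the control. All 3 control arrays lay below the 25th percentile of every array (4.77 to 4.91), so the size of the rise is uncertain. The fit gave 0.59 ± 0.13 (adjusted p = 0.0039), and the second PLOD2 probe set gave 0.06 ± 0.14. EGLN1, the main HIF prolyl hydroxylase, read 7.86, 7.81 and 7.8 with TiO2-NB against 7.35, 7.51 and 7.28 in the control. The groups did not overlap, and the difference of 0.44 missed the threshold (adjusted p = 0.0866). P4HA1 and P4HA2, collagen prolyl hydroxylases, were not called against control. CA12, the listed carbonic anhydrase with a probe set of its own, differed by 0.39 with TiO2-NB (adjusted p = 0.128).

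At the entry of glucose, the transporters were not called. SLC2A1 (GLUT1) read 7.73, 7.71 and 7.62 in the control, 7.63, 7.93 and 8.06 with 100 µg/ml MWCNT and 7.53, 7.82 and 7.81 with TiO2-NB. The 3 groups overlapped. The difference was 0.19 ± 0.09 with MWCNT (adjusted p = 0.206) and 0.04 with a 95% interval of -0.16 to 0.23 with TiO2-NB. Without the arrays that stood apart the MWCNT difference was 0.27 and was called (adjusted p = 0.0175). SLC2A3 (GLUT3) read 7.65, 7.87 and 7.11 in the control, 7.25, 7.34 and 7.59 with MWCNT and 6.79, 7.4 and 7.55 with TiO2-NB, again overlapping. Its differences were -0.15 ± 0.18 and -0.30 ± 0.18. Without control replicate 3, the lowest control array, the fall with TiO2-NB was called (adjusted p = 0.043).

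HK2, the inducible hexokinase, read 9.67, 9.75 and 9.58 in the control, 9.58, 9.8 and 9.75 with MWCNT and 10.04, 10.23 and 10.21 with TiO2-NB. Every TiO2-NB array was above every control array, and the MWCNT arrays overlapped the control. HK2 rose by 0.49 ± 0.10 with TiO2-NB (adjusted p = 0.000565), 1.41-fold. Its second probe set gave 0.14 ± 0.10. HK1, HK3 and GPI, the constitutive and myeloid hexokinases and the next enzyme, were not called in either exposure.

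The phosphofructokinase step, which commits glucose to glycolysis, had calls in both directions. PFKFB3, which makes the allosteric activator of phosphofructokinase, read 8.45, 8.64 and 8.78 in the control, 8.78, 8.57 and 8.47 with MWCNT and 9.28, 8.88 and 9.03 with TiO2-NB. The TiO2-NB arrays were all above the control and the MWCNT arrays within its range. PFKFB3 rose by 0.44 ± 0.12 with TiO2-NB (adjusted p = 0.00825). The call was lost without control replicate 1, without TiO2-NB replicate 1 and in a fit of the compared groups only, with adjusted p up to 0.0685.

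The phosphofructokinase subunits moved separately. PFKP, the platelet-type subunit, read 9.21, 9.14 and 8.98 in the control, 8.64, 8.93 and 8.89 with MWCNT and 8.3, 8.76 and 8.85 with TiO2-NB. All exposed arrays were below the control. PFKP fell by 0.47 ± 0.11 with TiO2-NB (adjusted p = 0.00253), a call lost in a fit of the compared groups only (adjusted p = 0.0744). PFKM, the muscle-type subunit, read 6.01, 5.77 and 5.71 in the control, 6.05, 6.52 and 6.51 with MWCNT and 5.58, 6.21 and 5.82 with TiO2-NB. The MWCNT arrays were above the control, replicate 1 by little. PFKM rose by 0.53 ± 0.14 with MWCNT (adjusted p = 0.0122), a call lost without control replicate 3, MWCNT replicate 2 or MWCNT replicate 3 and in a fit of the compared groups only, with adjusted p up to 0.0739. PFKL, the liver-type subunit, had group means within 0.18 of each other over all 10 groups.

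Of the 8 enzymes from aldolase to pyruvate kinase, 0 were called with MWCNT, against 13% of all genes, and 1 with TiO2-NB, against 22.1%. ENO2 read 5.79, 5.91 and 5.81 in the control, 5.9, 6.17 and 6.24 with MWCNT and 5.88, 6.3 and 6.37 with TiO2-NB, where replicate 1 lay inside the control range. It rose by 0.35 ± 0.12 with TiO2-NB (adjusted p = 0.042), a call lost when any control array, TiO2-NB replicate 2 or TiO2-NB replicate 3 was left out, with adjusted p up to 0.203. Over all 10 groups the means of ALDOA, an aldolase, spanned 0.13, those of ENO1, the ubiquitous enolase, 0.19 and those of PGK1 0.23. GAPDH, the glycolytic enzyme often taken as a reference, was not a listed gene, and it differed from control by -0.02 ± 0.05 with MWCNT and -0.06 ± 0.05 with TiO2-NB, not called.

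At the pyruvate branch, LDHA, which turns pyruvate into lactate, read 12.26, 12.34 and 12.16 in the control, 12.41, 12.59 and 12.59 with MWCNT and 12.18, 12.25 and 12.36 with TiO2-NB. The MWCNT arrays were above the control and the TiO2-NB arrays overlapped it. LDHA rose by 0.27 ± 0.09 with MWCNT (adjusted p = 0.0392), which is 1.21-fold. The call was lost without any 1 of 4 arrays, control replicates 1 and 3 and MWCNT replicates 2 and 3, and in a fit of the compared groups only, with adjusted p up to 0.14. With TiO2-NB the 95% interval of the difference was -0.18 to 0.19. PDK1 read 6.02, 6.06 and 6.12 in the control, 5.83, 6.15 and 5.94 with MWCNT and 6.02, 6.33 and 6.17 with TiO2-NB. The 3 groups overlapped and neither difference was called.

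The materials at 100 µg/ml for 24 h were compared directly. The difference itself uses no control array, while its error and p-value use the spread within all groups, the controls among them. Of the 36 members 15 differed, 8 higher and 7 lower with MWCNT. That is 41.7% of the members, against 24.9% of all genes (14% higher and 10.9% lower), with a median difference of 0, against -0.02. At least 1.5-fold were 5 calls, ARNT2, VEGFA, EPAS1, NDRG1 and DDIT4, against 4.93% of all genes. Higher with TiO2-NB were EPAS1, NDRG1, DDIT4, PFKFB3, HK2, VEGFA and P4HA2. Higher with MWCNT were ARNT2, PFKM, BNIP3, PLOD2, ERO1A and 3 enzymes of the lower pathway and the lactate step, LDHA, PGAM1 and PGK1. Without the arrays that stood apart 18 members differed, 10 higher and 8 lower with MWCNT, with 24.7% of all genes. Equally numbered arrays of these 2 groups deviated together (correlations of 0.62, 0.44 and 0.36), and with the number as a block 21 members differed, 58.3% against 38.4% of all genes. All 15 members were called in both fits, and ADM, EGLN1, P4HA1, SLC2A1, GPI and TPI1 in the blocked fit alone.

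The largest difference between the materials was in ARNT2, at 1.27 ± 0.09 (MWCNT minus TiO2-NB, adjusted p = 4.78e-09). NDRG1 differed by -0.82 ± 0.09 (adjusted p = 8.15e-07), EPAS1 by -0.87 ± 0.17 (adjusted p = 0.000922) and DDIT4 by -0.63 ± 0.12 (adjusted p = 0.000393). In each of these 4 genes the arrays of the materials did not overlap. VEGFA differed by -0.90 ± 0.29 (adjusted p = 0.0269), a call lost without MWCNT replicate 1, TiO2-NB replicate 2 or TiO2-NB replicate 3. PGAM1, phosphoglycerate mutase, read 11.55, 11.73 and 11.66 with MWCNT and 11.39, 11.4 and 11.41 with TiO2-NB, with the control between at 11.48, 11.54 and 11.47. It differed by 0.25 ± 0.05 (adjusted p = 0.00207). PGK1, phosphoglycerate kinase, read 12.58, 12.69 and 12.65 against 12.46, 12.39 and 12.45, a difference of 0.21 ± 0.05 (adjusted p = 0.00448). These are differences of under 1.5-fold at high signal, and in a fit of the compared groups only neither was called. ERO1A differed by 0.35 ± 0.09 (adjusted p = 0.00804), a call lost without MWCNT replicate 3 and without the arrays that stood apart.

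P4HA2 differed by -0.20 ± 0.07 (adjusted p = 0.0431), which 9 of its alternatives did not call. HK2 differed by -0.45 ± 0.10 (adjusted p = 0.00165), and with the mean of its probe sets adjusted p was 0.139. BNIP3 (0.45 ± 0.12) and PFKFB3 (-0.46 ± 0.12) kept their calls under every alternative run, though both differences were under 1.5-fold. PFKM (0.49 ± 0.14), PLOD2 (0.45 ± 0.13) and LDHA (0.27 ± 0.09) each lost the call when certain single arrays were left out, MWCNT replicate 3 among them for all 3 genes. Each also lost it in a fit of the compared groups only, and the PFKM arrays of the materials overlapped. HIF1A differed by -0.14 ± 0.07 and was not called. At 1 h and at 10 µg/ml the materials differed in 0 of 36 members, against 1.42% of all genes at 100 µg/ml for 1 h, 0% at 10 µg/ml for 1 h and 0.00995% at 10 µg/ml for 24 h. At 100 µg/ml for 1 h the blocked fit called 1 member, ADM (-0.22, adjusted p = 0.0339), which is 2.78% against 4% of all genes. Unadjusted p values under 0.05 numbered 1, 0 and 3 in these 3 comparisons.

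**Figure D3:**
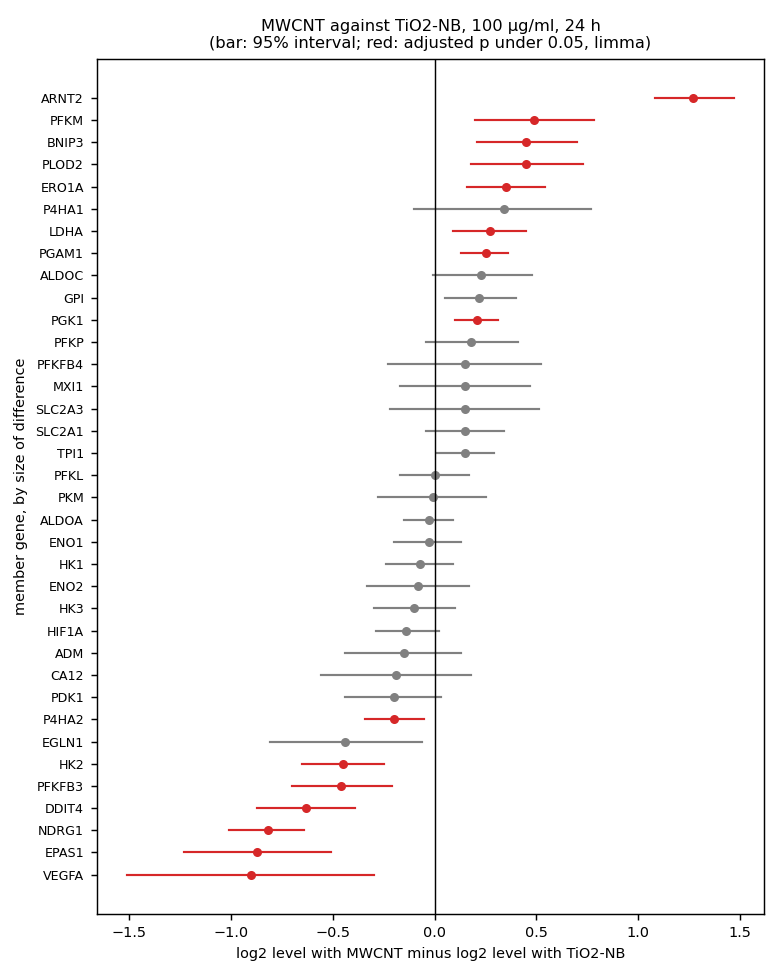
Difference in log2 level between MWCNT and TiO2-NB at 100 µg/ml for 24 h (x axis, MWCNT minus TiO2-NB) for each of the 36 members (y axis); points are estimates from 3 against 3 arrays, bars are 95% intervals, and red marks an adjusted p under 0.05 by limma. Of the 15 red members 8 lie to the right, led by ARNT2 at 1.27, and 7 to the left, led by VEGFA at -0.90, which has the widest of the red bars.

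Between the doses of TiO2-NB at 24 h, 8 members differed, 6 higher and 2 lower at 100 µg/ml, which is 22.2% against 13.5% of all genes (7.38% higher and 6.1% lower). At least 1.5-fold were 3 calls, against 3.2% of all genes. DDIT4 (0.63), EPAS1 (0.73), NDRG1 (0.51), ENO2 (0.47), HK2 (0.40) and PFKFB3 (0.38) were higher, and ARNT2 (-0.71) and BNIP3 (-0.39) were lower. Of the 8 calls 4 held under every alternative, those of DDIT4, EPAS1, NDRG1 and ARNT2. ENO2, HK2, PFKFB3 and BNIP3 lost the call in a fit of the compared groups only. Over all alternatives their adjusted p in limma's test reached 0.103, 0.0535, 0.179 and 0.127. Of MWCNT, 100 against 10 µg/ml gave 1 call, PFKM at 0.60 ± 0.14 (adjusted p = 0.0131), which is 2.78% against 4.67% (3.1% higher), and at least 1.5-fold it is set against 1.72%. That call was lost in a fit of the compared groups only and without MWCNT replicate 2 or 3 at 100 µg/ml or MWCNT replicate 1 at 10 µg/ml. In these comparisons the 100 µg/ml arrays are those also set against the control.

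In unexposed cells 11 members differed between the harvests, 6 higher and 5 lower at 24 h than at 1 h. The harvests differ in time since PMA, scraping and replating as well as in time of culture, and these cannot be told apart. ARNT2, ADM, BNIP3, PFKFB4, HK1 and TPI1 were higher at 24 h, and NDRG1, EGLN1, ALDOC, PFKFB3 and EPAS1 were lower. The 11 calls are 30.6% of the members, against 36.9% of all genes (20.8% higher and 16.1% lower), with a median of 0.08, against 0.03. At least 1.5-fold were 5 calls, ARNT2, ADM, BNIP3, NDRG1 and EGLN1, against 12.5% of all genes. Without the arrays that stood apart 17 were called, 11 higher and 6 lower, with 36.1% of all genes. Cell type markers differed between the times as well. Of the 10 macrophage and monocyte markers 6 were higher at 24 h, among them ITGAM (2.83-fold), CD14 (0.92 on the log2 scale) and CSF1R (0.85), and 2 were lower, LYZ (-1.67) and CYBB (-0.55). The lymphocyte list had 1 of 7 lower, NKG7 (-0.87), the epithelial list 1 of 5 higher, KRT18 (0.29), and the fibroblast list 0 of 6. Their part in the change of the members was not tested.

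ARNT2 rose by 1.07 ± 0.09 (adjusted p = 2.2e-09), the largest difference between the control times among the members. NDRG1 read 10.44, 10.74 and 10.69 at 1 h against 9.81, 9.69 and 9.84 at 24 h, and it fell by 0.85 ± 0.09 (adjusted p = 6.15e-08). ADM read 9.48, 9.42 and 9.67 at 1 h and 10.2, 10.3 and 10.42 at 24 h, a rise of 0.78 ± 0.14 (adjusted p = 7.19e-05). In ARNT2, NDRG1 and ADM the arrays of both times were well apart. BNIP3 read 7.65, 7.7 and 7.7 at 1 h and rose by 0.74 ± 0.12 (adjusted p = 2.55e-05). HK1, the constitutive hexokinase, rose by 0.46 ± 0.08 (adjusted p = 5.67e-05), and TPI1, triosephosphate isomerase, by 0.21 ± 0.07 (adjusted p = 0.015). PFKFB4, a relative of PFKFB3, rose by 0.58 ± 0.18 (adjusted p = 0.0127) while PFKFB3 fell by 0.49 ± 0.12 (adjusted p = 0.00178). ALDOC, the brain-type aldolase, fell by 0.52 ± 0.12 (adjusted p = 0.00126).

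EGLN1 fell by 0.60 ± 0.18 (adjusted p = 0.0108), and 1 h replicate 2, at 8.41, stood well above the other 1 h arrays at 7.7 and 7.84. Without it the call was lost (adjusted p = 0.108). EPAS1 fell by 0.47 ± 0.17 (adjusted p = 0.0379) with overlapping arrays, and lost the call without any 1 of 4 arrays, 1 h replicates 2 and 3 and 24 h replicates 1 and 2. PFKFB4 lost it without 1 h replicate 2 or 24 h replicates 1 or 2, and TPI1 without 24 h replicates 1 or 2. HIF1A, SLC2A1, HK2, LDHA, PDK1 and VEGFA were not called between the times.

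**Figure D4:**
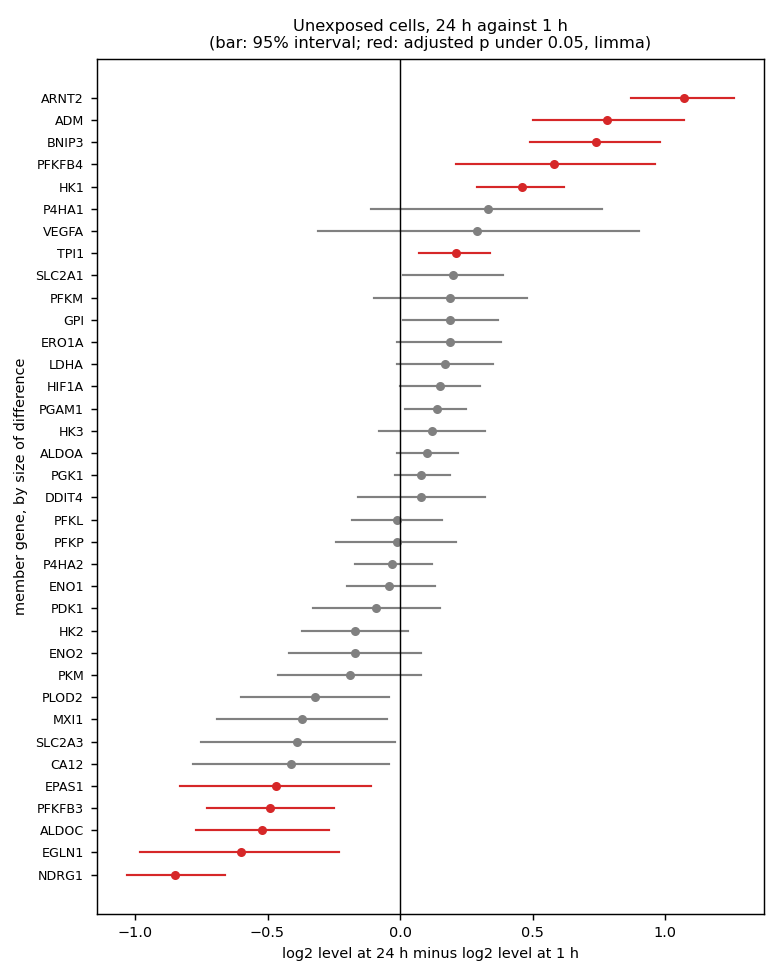
Difference in log2 level of unexposed cells between 24 h and 1 h (x axis, 24 h minus 1 h) for the 36 members (y axis); points are estimates from 3 against 3 arrays, bars are 95% intervals, and red marks an adjusted p under 0.05 by limma. Of the 11 red members 6 lie to the right, from TPI1 at 0.21 to ARNT2 at 1.07, and 5 to the left, down to NDRG1 at -0.85.

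Several members that changed with TiO2-NB also differed between the control times. Both contrasts share the 24 h control arrays, which enter them with opposite signs, and this by itself favours opposite differences. The contrasts are therefore set side by side and not correlated. ARNT2 was 1.07 higher and BNIP3 0.74 higher at 24 h than at 1 h in the control, and -0.84 and -0.40 with 100 µg/ml TiO2-NB against the 24 h control. NDRG1, PFKFB3 and EPAS1 were -0.85, -0.49 and -0.47 over time, and 0.42, 0.44 and 0.88 with TiO2-NB. In levels, NDRG1 with TiO2-NB (10.2) lay between the control means at 24 h (9.78) and at 1 h (10.62), and EPAS1 with TiO2-NB (9.63) lay above both (8.75 and 9.22). ADM and HK1 changed over time and were not called with TiO2-NB. HIF1A, DDIT4, HK2, ENO2 and PFKP changed with TiO2-NB and were not called over time.

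The response to 100 µg/ml TiO2-NB, each time against its own control, was also compared between 24 h and 1 h. It differed in 8 of 36 members, 4 higher at 24 h (EPAS1, DDIT4, NDRG1 and HK2) and 4 lower (ARNT2, BNIP3, MXI1 and PFKP). That is 22.2% of the members, against 16.3% of all genes (7.49% higher and 8.85% lower), and 5 calls were at least 1.5-fold, against 6.76% of all genes. MXI1 is the member called here and not at 24 h alone: it read 8.9, 9.17 and 9.21 with TiO2-NB at 1 h, against 8.56, 9.08 and 8.89 in that control, and 8.32, 7.96 and 8 at 24 h, against 8.39, 8.47 and 8.55. The response to 100 µg/ml MWCNT differed between the times in 0 members, against 3.71% of all genes, and 7 had an unadjusted p under 0.05.

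Related genes outside the members, from lists also chosen with earlier results known, had called genes in both exposures, to be read against 13% of all genes with MWCNT and 22.1% with TiO2-NB. Of 13 regulators and partners of HIF, 0 rose and 1 fell with 100 µg/ml MWCNT at 24 h, and 1 rose and 1 fell with TiO2-NB (7.69% and 15.4%). CITED2, which competes with HIF for its coactivators, fell by 0.53 ± 0.12 with MWCNT, and EP300, one of those coactivators, fell by 1.02 ± 0.26 with TiO2-NB. Of 23 further hypoxia-induced genes 5 rose and 2 fell with MWCNT (30.4%), and 3 rose and 2 fell with TiO2-NB (21.7%, near the share of all genes). AK4, a mitochondrial adenylate kinase, rose by 1.15 ± 0.15 and 1.26 ± 0.15 with the respective materials. BHLHE40, a transcriptional repressor, rose by 1.25 ± 0.16 with TiO2-NB. ZNF395, a hypoxia-induced transcription factor, fell by 1.72 ± 0.22 with MWCNT and by 0.68 ± 0.22 with TiO2-NB, a difference between the materials of -1.04.

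Of 15 further glycolysis genes 3 rose and 1 fell with MWCNT, and 1 rose and 3 fell with TiO2-NB (26.7% each). SLC2A6, a lysosomal hexose transporter, rose by 0.91 ± 0.13 and 0.46 ± 0.13. SLC2A5, the fructose transporter, fell by 0.67 ± 0.24 with TiO2-NB. PGM1, which links glycogen to glucose 6-phosphate, rose by 0.40 ± 0.11 with MWCNT and fell by 0.34 with TiO2-NB, and the materials differed by 0.74 ± 0.11 (adjusted p = 5.92e-05). Of 13 genes of pyruvate and lactate handling 2 rose with MWCNT, DLAT (0.46 ± 0.11) and PDHA1 (0.28 ± 0.07), both subunits of pyruvate dehydrogenase. With TiO2-NB 1 rose and 1 fell, MPC2 (0.36 ± 0.07), a subunit of the mitochondrial pyruvate carrier, and PDK3 (-0.33 ± 0.11), a pyruvate dehydrogenase kinase, so 15.4% of this list were called with each material. Of 14 pentose phosphate and glycogen genes 2 rose with MWCNT (14.3%) and 3 rose and 5 fell with TiO2-NB (57.1%, against 22.1% of all genes). PGD, an oxidative pentose phosphate enzyme, rose by 0.72 ± 0.16 with TiO2-NB, while PYGL and PYGB, the glycogen phosphorylases, fell by 0.42 and 0.38.

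By Pearson correlation over the 10 group means, the genes with patterns most like ARNT2 were AIF1 (0.99), POU4F2 (0.989), APEX1 (0.987), DGLUCY (0.985) and ABHD10 (0.985). The values describe 10 means that share arrays and the large gap between the times. AIF1, a calcium-binding protein of macrophages, had means of 9.39 in the 1 h control, 10.07 in the 24 h control, 10.24 with 100 µg/ml MWCNT at 24 h and 9.51 with 100 µg/ml TiO2-NB at 24 h.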

How the data were processed

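RNA of THP-1 cells was measured on 30 Affymetrix 3′ expression arrays, 3 for each of 10 groups. The authors deposited log2 intensities, 1 per probe set, from RMA (named without a version in the submitters' processing notes). They ran from 1.89 to 14.42 and array medians from 6.35 to 6.46, with no further normalization here. RMA levels cannot be compared between probe sets, and an array gives no read depth. Precision rests on the 3 arrays of a group and on the spread within all 10 groups.

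Of 22277 probe sets, 62 were controls, 19064 matched 1 gene, 1043 several and 2108 none, by the platform annotation with symbols updated through Entrez IDs to RefSeq's GRCh38.p14 table. The build behind the platform annotation is not given in the sources used here. Probe sets of 1 gene that lay above the array's 25th percentile on at least 3 arrays were kept (15309). Where a gene had several (3419 of the 10050 genes tested), the brightest on average was used.

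One limma 3.58.1 fit (R 4.3.3) of all 30 arrays had 10 group means and 20 residual degrees of freedom. Moderated two-sided tests were adjusted by Benjamini-Hochberg within each of the comparisons. Errors of differences are SEs and those of levels SDs. The code was tested on simulated data. Alternatives were filters, centring, cyclic loess, only the compared groups, a replicate block, the mean of probe sets, a trended robust fit and leaving out each array. A 1.5-fold minimum was also set, for counts of calls and not for single calls. Replicate numbers were checked by the correlation of residuals: all 3 pairs were above 0.1 among 4 of the 5 groups at 1 h (not 10 µg/ml TiO2-NB), among the control and 10 µg/ml groups at 24 h, and between the 100 µg/ml groups at 24 h. A block within these sets (14 residual degrees of freedom), used for comparisons inside a set, and a fit without the array that stood apart in each group were added after seeing the data.

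The members, gene lists and tests were chosen with earlier results of these data known. Array values were given for members called against control or between materials at 100 µg/ml for 24 h and for 9 pathway genes. For the control times the rule took up to 8 rises and 8 falls. For each further list it took up to 4 called genes by size, and the text names only some of these.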

Additional observations from a re-analysis of the deposited data

Results flagged for a closer look

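The response to 100 µg/ml TiO2-NB (exposed minus control of the same time) differed between 24 h and 1 h in 8 of 36 members by limma's interaction test, 22.2% against 16.3% of all genes. The difference of responses was 0.84 for EPAS1 (adjusted p = 0.0222), 0.65 for DDIT4 (adjusted p = 0.00967), 0.44 for NDRG1 (adjusted p = 0.0206) and 0.40 for HK2 (adjusted p = 0.0492). It was -1.06 for ARNT2 (adjusted p = 1.1e-05), -0.65 for BNIP3 (adjusted p = 0.0112), -0.63 for MXI1 (adjusted p = 0.0492) and -0.58 for PFKP (adjusted p = 0.0118). ARNT2, BNIP3 and DDIT4 kept the call under every alternative run on this comparison, with the highest adjusted p for BNIP3 at 0.0443. MXI1 lost it under 14 alternatives and HK2 under 13, each of them including fits that left out single arrays. For MWCNT 0 members differed, against 3.71% of all genes, and 7 had an unadjusted p under 0.05 by limma. The estimate of the interaction rests on 12 arrays and its error on the spread within all groups. Whether the materials differ in the interaction was not tested.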

How the results depend on the processing

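Of 58 calls of members over all comparisons, 28 held under every alternative that tested them and 0 changed sign. The 1.5-fold minimum was set for counts only and is not among these alternatives. The counts that follow, here and in the paragraphs below, are of members alone, without the share of all genes in the same fit. A change in these counts can therefore not be told from a change over all genes. In a fit of only the compared groups the members called at 100 µg/ml for 24 h were 3 with MWCNT and 6 with TiO2-NB against control, 0 between the MWCNT doses, 5 between the TiO2-NB doses and 3 for the time difference of the TiO2-NB response. With a minimum change of 1.5-fold the counts were 1 with MWCNT, 3 with TiO2-NB, 5 between control times, 5 between materials, 3 between TiO2-NB doses and 5 for the TiO2-NB response over time. The stricter filter removed PFKM, PLOD2, ENO2 and PDK1 untested, and with PFKM the sole call between the MWCNT doses, leaving 0. Without the arrays that stood apart, which leaves 2 arrays a group and lowers the spread by construction, the counts were 11 with MWCNT, 17 between control times, 3 between MWCNT doses and 1 for the MWCNT response over time.

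Leaving out 1 array at a time gave 3 to 9 calls with MWCNT, 7 to 11 with TiO2-NB, 8 to 13 between control times, 10 to 16 between materials, 0 to 2 between MWCNT doses, 5 to 7 between TiO2-NB doses and 4 to 7 for the TiO2-NB response over time. The remaining comparisons stayed at 0.

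Of 60 pairs of equally numbered arrays, 38 had residuals correlating above 0.1 and 21 were negative, from -0.53 to 0.73, so the numbers paired the arrays inside sets of groups but not across all. With the replicate block over all groups 2 members were called between the MWCNT doses in place of 1, and the other counts stayed within 1.5 times. The block within paired groups gave 2 calls for 100 µg/ml TiO2-NB at 1 h and 1 between the materials at that dose and time, in place of 0, and changed no count by over 1.5 times otherwise. Signal over background limits PLOD2, which lay near the arrays' 25th percentile.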
